A study of Mus musculus with 8 samples.

Results

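The RNAs encoded by the mouse mitochondrial genome were followed in intestinal epithelial cells (IECs) that carried or lacked DDX5, a DEAD-box RNA helicase. The members were all rows of the colon and ileum count tables whose gene symbol starts with mt-, which places the gene on chromosome M. This rule found 36 genes of 40178 listed in all, namely 13 mRNAs, 2 rRNAs and 21 tRNAs, and the 3 kinds of RNA were kept apart. Of these, 34 are listed for colon and 35 for ileum. GENCODE M21 annotates 37 genes on this chromosome, and mt-Tk was in neither table. RNAseq of ribosome-depleted total RNA gave 8 libraries, 1 each of colon and of ileum from 2 mice per genotype at 8 weeks of age. WT mice were DDX5(+/+), Vil1Cre(+) and DDX5-deficient mice, labelled DDX5KO, were DDX5(fl/fl), Vil1Cre(+) littermates, so that all 4 mice carried the Cre recombinase under the Villin promoter, which is active in gut epithelium. Cells were released from the gut wall by EDTA, not sorted, and in such bulk samples fewer cells of a type and less RNA per cell cannot be told apart.

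Mitochondrial DNA is a small circle that is transcribed from both strands into long precursors. Most genes lie on the product of one strand, while mt-Nd6 and 8 tRNAs are read from the opposite (light) strand. tRNAs sit between most of the mRNAs and rRNAs, and their excision releases the neighbouring RNAs. The mRNAs encode core subunits of respiratory complexes I, III, IV and V, whose other subunits come from the nucleus, and the rRNAs form the mitochondrial ribosome. Absorptive enterocytes are rich in mitochondria, which supply ATP for nutrient and ion transport.

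The libraries held 11571061 to 22984283 counts over genes. Ddx5 itself read 771 and 706 CPM in WT colon against 367 and 355 in DDX5-deficient colon, and 700.5 and 700.3 in WT ileum against 339.8 and 326 in DDX5-deficient ileum. A CPM value is a count per 1000000 counts of the library, scaled with TMM factors over the 8 libraries. The residual signal is in a row that covers the whole gene, and the deleted part was not looked at apart. Summed over 7 epithelial markers the level was 10453 to 17668 CPM, and over 14 markers of immune, stromal, endothelial, glial and red blood cells it was 16.4 to 75.9 CPM. Summed ileal markers (6 genes) lay at 170.4 to 341 CPM in colon and 8224 to 14361 CPM in ileum. Summed colon markers (5 genes) lay at 12806 to 23695 CPM in colon and 7781 to 10324 CPM in ileum, and most of each sum was Muc2. The second DDX5-deficient ileum library stood apart, where Gm10800, Gm21738 and Gm10801, 3 genes of repeat-like sequence, took 19.5% of the counts. They took 0.226% in the other DDX5-deficient ileum library, 4.04% and 3.93% in WT ileum, and at most 0.261% in the 4 colon libraries.

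Between 5.06% and 8.08% of all gene counts fell on mitochondrial genes. The share was 8.08% (95% Wilson interval 8.07 to 8.10) and 6.68% (6.67 to 6.69) in WT colon, and 7.65% (7.64 to 7.66) and 7.22% (7.21 to 7.23) in DDX5-deficient colon. It was 7.48% (7.47 to 7.49) and 7.10% (7.09 to 7.12) in WT ileum, and 7.32% (7.30 to 7.33) and 5.06% (5.05 to 5.07) in DDX5-deficient ileum. These intervals cover counting error only, and the spread between replicates was far wider, 7.38% ± 0.994 (SD, n = 2) in WT colon and 6.19% ± 1.59 in DDX5-deficient ileum. With 2 libraries a group the smallest p that an exact two-sided permutation test can give is 0.333, so no test of the shares was made. The lowest share belonged to the library rich in repeat-like counts. With the repeat-like genes left out of the total it was 6.28% there and 7.33% in its fellow replicate, against 7.79% and 7.39% in WT ileum.

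Most mitochondrial counts were rRNA. The rRNAs took 69.5% ± 1.02 of them in WT colon, 73.8% ± 0.208 in DDX5-deficient colon, 75.7% ± 1.66 in WT ileum and 77.4% ± 3.58 in DDX5-deficient ileum (SD, n = 2). The libraries had been depleted of ribosomal RNA, and whether the probes reached the mitochondrial rRNAs is not given in the sources used here. Reads of mRNAs with nuclear copies, described below, can also be missing from the counts. This can lower the mRNA share, by how much was not measured. The mRNA share of mitochondrial counts was 31.2% and 29.7% in WT colon against 26.3% and 26.0005% in DDX5-deficient colon, and these values did not overlap. In ileum it was 25.4% and 23.1% in WT and 25.04% and 19.9% in DDX5-deficient cells, which overlapped. The tRNAs together held 188 to 615 counts a library, or 0.0134% to 0.105% of the mitochondrial counts.

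**Figure D1:**
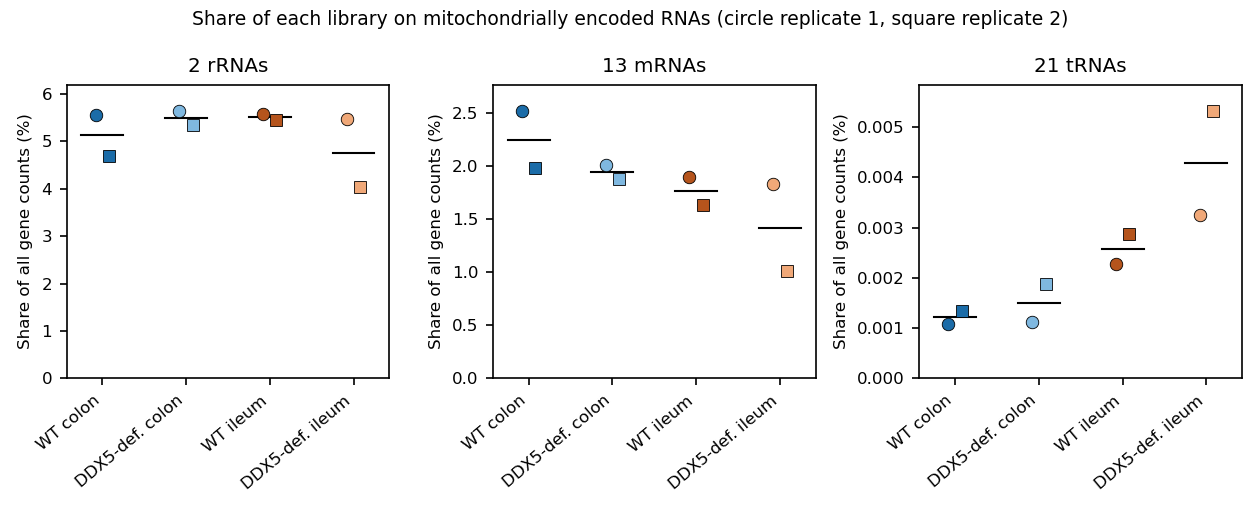
Share of all gene counts (%, linear axes from 0, a separate scale in each panel) on mitochondrial rRNAs, mRNAs and tRNAs in the 8 libraries, with circles for replicate 1, squares for replicate 2 and bars for the group mean of 2 libraries. The second DDX5-deficient ileum library is lowest for mRNAs (1.01%) and highest for tRNAs (0.00531%).

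Copies of mitochondrial DNA in the nuclear genome bear on how a mitochondrial mRNA can be counted. Reads were 100 bases long and paired, and only uniquely mapped ones were counted, so that a pair found identically in a nuclear copy would be counted for neither gene. All stretches of 100 bases in each mRNA were searched in the other annotated mouse transcripts (141730 in GENCODE M21). At least 97.6% of them recurred for mt-Co2, mt-Atp6, mt-Co3, mt-Nd3 and mt-Nd4l, 60.8% for mt-Nd4, 30.8% for mt-Co1 and 3.19% for mt-Nd2, while none recurred for mt-Nd1, mt-Nd5, mt-Nd6, mt-Cytb, mt-Atp8, mt-Rnr1 and mt-Rnr2. The copies of mt-Co1 (its last part), mt-Co2, mt-Atp6, mt-Co3, mt-Nd3, mt-Nd4l and mt-Nd4 (its first part) lie side by side on chromosome 1 (mm10, 24611535 to 24616197, minus strand). Gm28661, the copy of mt-Co2, had 0 mismatches over 681 aligned bases. Gm29216 had 1 mismatch to mt-Co1 over 483 bases, A1066T, counted from the first base of mt-Co1. Only annotated transcripts were searched, so further copies in unannotated sequence were not assessed. This includes the sequence between Gm28661 and Gm10925, the copy of mt-Atp6, where a copy of most of mt-Atp8 would lie.

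The first 80 bases of mt-Co2, which encodes a core subunit of complex IV, are shown with both copies because they show how alike the copies are. The copy on chromosome 2, Gm13341, differs in this window at 2 positions, C25T and G57A, counted from the first base of mt-Co2 and set in capitals. The gene lies at chrM:7013-7092 on the plus strand, and the windows of Gm28661 and Gm13341 at chr1:24615486-24615565 and chr2:22587883-22587962 on the minus strand (mm10, GENCODE M21 transcripts, 5′ to 3′).
mt-Co2: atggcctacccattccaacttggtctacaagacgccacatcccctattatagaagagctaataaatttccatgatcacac
Gm28661: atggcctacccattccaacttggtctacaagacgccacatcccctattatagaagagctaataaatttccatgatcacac
Gm13341: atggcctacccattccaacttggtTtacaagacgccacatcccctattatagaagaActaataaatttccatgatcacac
A read within the first sequence cannot, without its mate, be told from one within the second. The counts left on mt-Co2 were 335 and 414 in WT colon, 327 and 256 in DDX5-deficient colon, 563 and 236 in WT ileum and 205 and 170 in DDX5-deficient ileum, and each was 0.939 to 1.36 times the count on Gm28661 in the same library. For mt-Co3, a complex IV subunit, the count was 0.860 to 1.70 times that of its copy Gm28437. How many reads were left uncounted was not measured. Apart from mt-Co1, the levels of mRNAs with such copies are not set against those of mRNAs without them. The values of mt-Co1 beside other members below carry this limit.

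Per length, the large-subunit rRNA mt-Rnr2 was the most abundant of the members with no recurring stretch, at 26756 CPM per kilobase on average in WT colon. The small-subunit rRNA mt-Rnr1 followed with 4331 CPM per kilobase, then mt-Nd1 with 1016, mt-Cytb with 689, mt-Nd5 with 140.5 and the light-strand mRNA mt-Nd6 with 44.6. mt-Atp8, which overlaps mt-Atp6, stood at 5.57 and is left out of this order. It lies between mt-Co2 and mt-Atp6, and the sequence between the nuclear copies of these genes was not searched. The order was the same in the other 3 groups, with mt-Nd5 at 456 and mt-Nd6 at 52.0 CPM per kilobase in WT ileum. mt-Co1, the catalytic subunit of complex IV, stood at 11597 CPM per kilobase in WT colon and 9043 in WT ileum although 30.8% of its stretches recur, and in DDX5-deficient ileum its libraries overlapped those of mt-Rnr1 on this scale.

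Of the rRNAs, only mt-Rnr1 separated the tissues. mt-Rnr2 read 46339.9 and 38314 CPM in WT colon, 48597 and 42927 in DDX5-deficient colon, 51969 and 49959.7 in WT ileum, and 54751 and 44108 in DDX5-deficient ileum. mt-Rnr1 read 4467 and 3805, 3935 and 4377, 7167 and 6424, and 5679 and 6024 CPM in the same order of groups. For mt-Rnr1 the 4 ileum libraries all lay above the 4 colon libraries, and for mt-Rnr2 they overlapped. How many of all genes separate the tissues in this way was not counted, here or for the mRNAs below.

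Of the complex I subunits, which carry electrons from NADH into the chain, mt-Nd1 read 1063 and 881 CPM in WT colon, 844 and 696 in DDX5-deficient colon, 1644 and 1297 in WT ileum, and 1580.1 and 1128 in DDX5-deficient ileum. mt-Nd2 read 108 and 128, 87.0 and 106, 328 and 281, and 348 and 296 CPM in these groups, and all ileum libraries lay above all colon libraries for both genes. The same held for the complex I mRNAs farther along the genome. mt-Nd4 read 251 and 269 CPM in WT colon, 162 and 217 in DDX5-deficient colon, 673 and 539.6 in WT ileum, and 513 and 408 in DDX5-deficient ileum. mt-Nd5 read 246 and 266, 208 and 279, 957 and 707, and 807 and 840.4 CPM. mt-Nd3 and mt-Nd4l, which have nuclear copies, were counted little. mt-Nd3 read 5.57 and 4.14, 6.07 and 4.60, 6.55 and 4.44, and 7.40 and 5.25 CPM, and mt-Nd4l had 1, 1, 1 and 2 counts in the colon libraries and 11, 6, 3 and 8 in the ileum libraries and failed the filter on low counts.

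mt-Nd6, a complex I subunit and the one mRNA of the light strand (chrM:13552-14070, minus strand), read 27.5 and 18.8 CPM in WT colon, 27.3 and 20.7 in DDX5-deficient colon, 24.1 and 29.9 in WT ileum, and 28.9 and 66.6 in DDX5-deficient ileum. The last of these libraries was over 2 times any other.

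mt-Cytb, the one mitochondrially encoded subunit of complex III, read 841 and 736 CPM in WT colon, 679.8 and 598 in DDX5-deficient colon, 1365 and 1141 in WT ileum, and 1328 and 1084 in DDX5-deficient ileum. In complex IV, mt-Co1 read 20388 and 15446, 16674 and 14662, 15081 and 12862, and 15524 and 8606 CPM in these groups. mt-Cytb was thus higher in each ileum library than in each colon library, and mt-Co1 was not. mt-Co2 read 17.6 and 18.2, 18.05 and 11.7, 25.98 and 16.4, and 19.2 and 18.2 CPM, and mt-Co3 read 43.3 and 35.6, 43.0 and 25.8, 40.4 and 26.6, and 31.6 and 25.9 CPM. The ATP synthase (complex V) subunits were counted little, with mt-Atp6 at 5.36 and 5.94, 4.97 and 4.33, 9.14 and 4.93, and 7.21 and 7.17 CPM and mt-Atp8 at 0.998 and 1.28, 1.43 and 0.684, 2.31 and 1.179, and 0.937 and 0.857 CPM. Over all 8 libraries the tissues overlapped for each of these 4 mRNAs. Within DDX5-deficient cells alone, mt-Atp6 and mt-Co2 were higher in both ileum libraries than in either colon library.

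**Figure D2:**
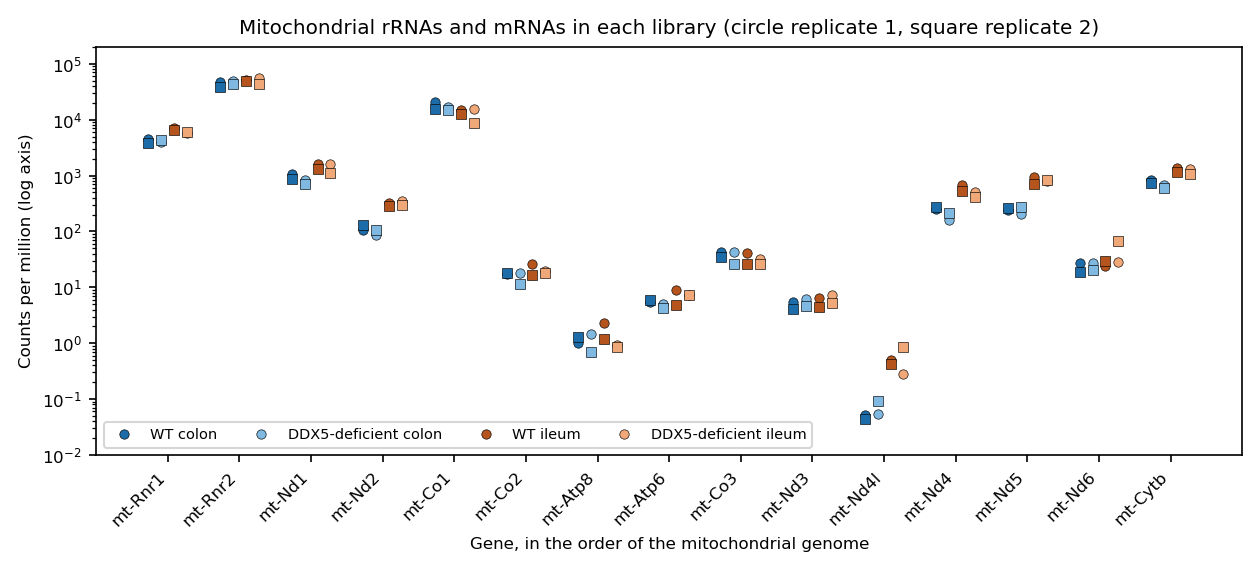
Level of both mitochondrial rRNAs and the 13 mRNAs (CPM, log axis) in the 8 libraries, in the order of the mitochondrial genome, with blue for colon, brown for ileum, dark for WT, light for DDX5-deficient, circles for replicate 1 and squares for replicate 2. mt-Nd2, mt-Nd4 and mt-Nd5 separate the ileum from the colon, while mt-Rnr2 and mt-Co1 do not.

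Ileum and colon were compared within each genotype to see how the mitochondrial transcripts differ along the gut. In WT cells 5 of the 14 mRNAs and rRNAs tested were higher in ileum and 0 were lower, at a Benjamini-Hochberg adjusted p below 0.05 in edgeR's quasi-likelihood test over all 8 libraries. Over all 16178 genes tested, 17.4% were higher and 16.8% lower. mt-Nd5 rose most, by 1.70 ± 0.198 on the log2 scale (SE, adjusted p = 0.000341), followed by mt-Nd2 (1.37 ± 0.160, adjusted p = 0.000352), mt-Nd4 (1.22 ± 0.192, adjusted p = 0.00164), mt-Rnr1 (0.72 ± 0.211, adjusted p = 0.0304) and mt-Cytb (0.67 ± 0.178, adjusted p = 0.0204). mt-Nd1 was at 0.60 with adjusted p = 0.072 and passed with the mouse as a block (adjusted p = 0.0175) and in DESeq2 (adjusted p = 0.0187). Not a single mRNA or rRNA passed as lower in DESeq2 either. mt-Co1 was at -0.36 ± 0.339 (adjusted p = 0.459). The median over the 14 members was 0.46 and over all genes -0.02.

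In DDX5-deficient cells, too, 5 of 14 were higher in ileum and 0 lower, with 18% of all genes higher and 17.3% lower. mt-Nd5 rose by 1.76 ± 0.198 (adjusted p = 0.000285), mt-Nd2 by 1.73 ± 0.162 (adjusted p = 0.000107), mt-Nd4 by 1.28 ± 0.192 (adjusted p = 0.00129), mt-Cytb by 0.92 ± 0.179 (adjusted p = 0.00488) and mt-Nd1 by 0.81 ± 0.224 (adjusted p = 0.0227). mt-Rnr1 was at 0.49 ± 0.210 (adjusted p = 0.103) and mt-Nd6 at 0.99 ± 0.359 (adjusted p = 0.0636), and DESeq2 called both as higher (adjusted p = 0.000700 and 0.0195). mt-Co1 was at -0.38 ± 0.339 (adjusted p = 0.423). The calls of mt-Nd2, mt-Nd4 and mt-Nd5 held in both genotypes with each library of the comparison left out, and so did that of mt-Cytb in DDX5-deficient cells. In WT, mt-Rnr1 was lost without any 1 of the 4 libraries (adjusted p = 0.0791 to 0.200) and mt-Cytb without either colon library or the first ileum library (adjusted p = 0.0732 to 0.166). In DDX5-deficient cells mt-Nd1 was lost without the second colon or the first ileum library (adjusted p = 0.105 and 0.0994).

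Ratios of 2 members within a library do not depend on how libraries are scaled. Those with mt-Co1, part of whose reads can be uncounted, are compared between libraries only. The counts on mt-Co1 were 24.2 and 20.99 times those on mt-Cytb in WT colon and 24.5 times in both DDX5-deficient colon libraries. They were 11.1 and 11.3 times in WT ileum and 11.7 and 7.94 times in DDX5-deficient ileum, so that no ileum library reached the lowest colon library. Against mt-Nd5 the separation was wider, with 52.5 to 82.9 counts of mt-Co1 per count of mt-Nd5 in the colon libraries and 10.2 to 19.2 in the ileum libraries. mt-Nd1 and mt-Cytb, by contrast, kept a ratio of 1.04 to 1.26 in all 8 libraries. mt-Co1 took 86.7% to 88.9% of the mRNA counts in colon and 68.9% to 76.9% in ileum. This is not its share of the mRNA itself. At least 97.6% of stretches recurred for mt-Co2, mt-Atp6, mt-Co3, mt-Nd3 and mt-Nd4l, whose reads can be missing from the total. The count ratio of mt-Rnr2 to mt-Rnr1 was 9.81 to 12.3 in colon and 7.25 to 9.64 in ileum.

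**Figure D3:**
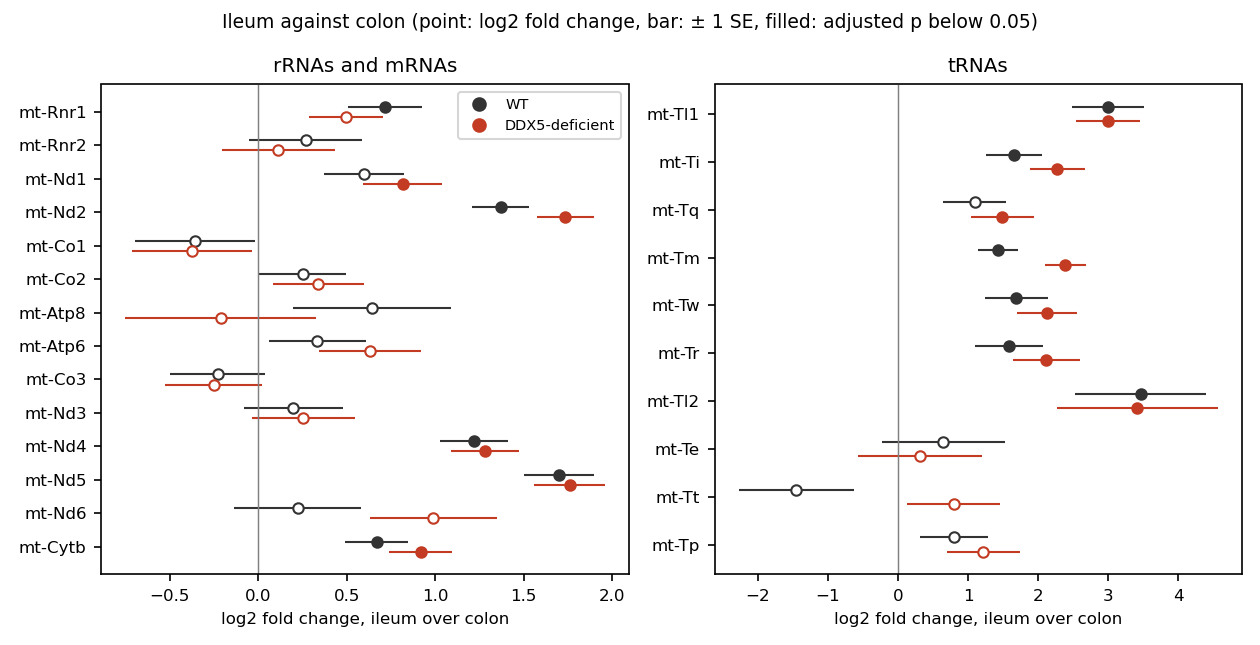
Log2 fold change of ileum over colon (x axis) for mitochondrial rRNAs and mRNAs (left) and tRNAs (right) in WT (grey) and DDX5-deficient cells (red). Bars are 1 SE, derived from the F statistic of edgeR, and points are filled at an adjusted p below 0.05. The low-count filter passed mt-Tl1, mt-Tr and mt-Tl2 only through the ileum libraries. mt-Nd2, mt-Nd4, mt-Nd5 and mt-Cytb are filled in both genotypes, and mt-Co1 lies left of 0 in both with open points.

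The comparison of DDX5-deficient with WT colon asked which RNAs depend on DDX5 there. No mitochondrial mRNA or rRNA passed the criterion of the study, which asks for a change of 0.5 or more on the log2 scale in either direction and an unadjusted p below 0.05, in edgeR with the replicate number as a block or in DESeq2 with the same block. Over all 15362 genes 3.67% passed as lower and 3.04% as higher, and no gene had an adjusted p below 0.05 in edgeR (1836 had an unadjusted p below 0.05), while DESeq2 called 118. Beneath the size limit, 4 of the 14 had an unadjusted p below 0.05, all of them lower in DDX5-deficient cells. They were mt-Nd4 (-0.48 ± 0.107, adjusted p = 0.282), mt-Nd1 (-0.35 ± 0.0905, adjusted p = 0.319), mt-Cytb (-0.31 ± 0.0887, adjusted p = 0.332) and mt-Nd2 (-0.30 ± 0.0794, adjusted p = 0.321). mt-Co1 was at -0.19 ± 0.128, mt-Nd5 at -0.10 ± 0.106, mt-Nd6 at 0.05 ± 0.105, mt-Rnr1 at 0.00 ± 0.136 and mt-Rnr2 at 0.11 ± 0.133. The median of the 14 was -0.22, beside 0.00 over all genes. Of the 14 markers of other cells 11 were tested, of which 2 were called lower and 1 higher. All 14 summed to 38.9 and 33.2 CPM in WT and 16.4 and 22.9 CPM in DDX5-deficient colon. The largest part was the immune cell marker Ptprc, at 22.2 and 19.9 CPM in WT and 5.41 and 10.9 CPM in DDX5-deficient colon. Pecam1 and Jchain went the other way and were higher in both DDX5-deficient colon libraries than in either WT one. Of the 5 genes chosen as colon markers, Car1, Slc26a3, Car4, Aqp8 and Muc2, 3 were called higher. Car4 did not mark the colon here, at 245 and 237 CPM in WT colon against 472 and 542 CPM in WT ileum. All 5 summed to 13906 and 17283 CPM in WT and 12806 and 23695 CPM in DDX5-deficient colon. Most of each sum was Muc2, a goblet cell mucin, at 10680 and 13805 CPM in WT and 8832 and 19236 CPM in DDX5-deficient colon. Slc26a3, Car4 and Aqp8 were each higher in both DDX5-deficient colon libraries than in either WT one, and Car1 overlapped. The part of the markers of other cells and of colon in the mitochondrial values was not tested.

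In the ileum mt-Nd6 alone among the 14 mRNAs and rRNAs passed the criterion, as higher in DDX5-deficient cells, with 3.87% of 14068 genes called higher, 3.48% lower and 0.697% at an adjusted p below 0.05. Its log2 fold change was 0.72 ± 0.196 (unadjusted p = 0.00377 and adjusted p = 0.155 in edgeR). The replicate number stood in for the harvest covariate of the study, which is not given per mouse. Without this block the value was 0.82 (unadjusted p = 0.0598 in edgeR), and in one fit of all 8 libraries without a block, the base of the fits that leave out a library, it was 0.82 (unadjusted p = 0.0501). In such a fit without the second DDX5-deficient ileum library, the one rich in repeat-like counts, it was 0.12 (unadjusted p = 0.672 in edgeR). The count ratio of mt-Nd6 to mt-Nd5, its neighbour on the other strand, was 0.0252 and 0.0423 in WT ileum, 0.0357 and 0.0792 in DDX5-deficient ileum, and 0.0705 to 0.132 in the colon libraries. No mRNA or rRNA was called lower. mt-Nd4 was at -0.40 ± 0.175 (adjusted p = 0.393), mt-Co1 at -0.27 ± 0.325, mt-Rnr1 at -0.21 ± 0.281, mt-Nd1 at -0.13 ± 0.215, mt-Cytb at -0.05 ± 0.208 and mt-Nd5 at 0.00 ± 0.205. The median of the 14 was -0.09, and 0.00 over all genes.

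**Figure D4:**
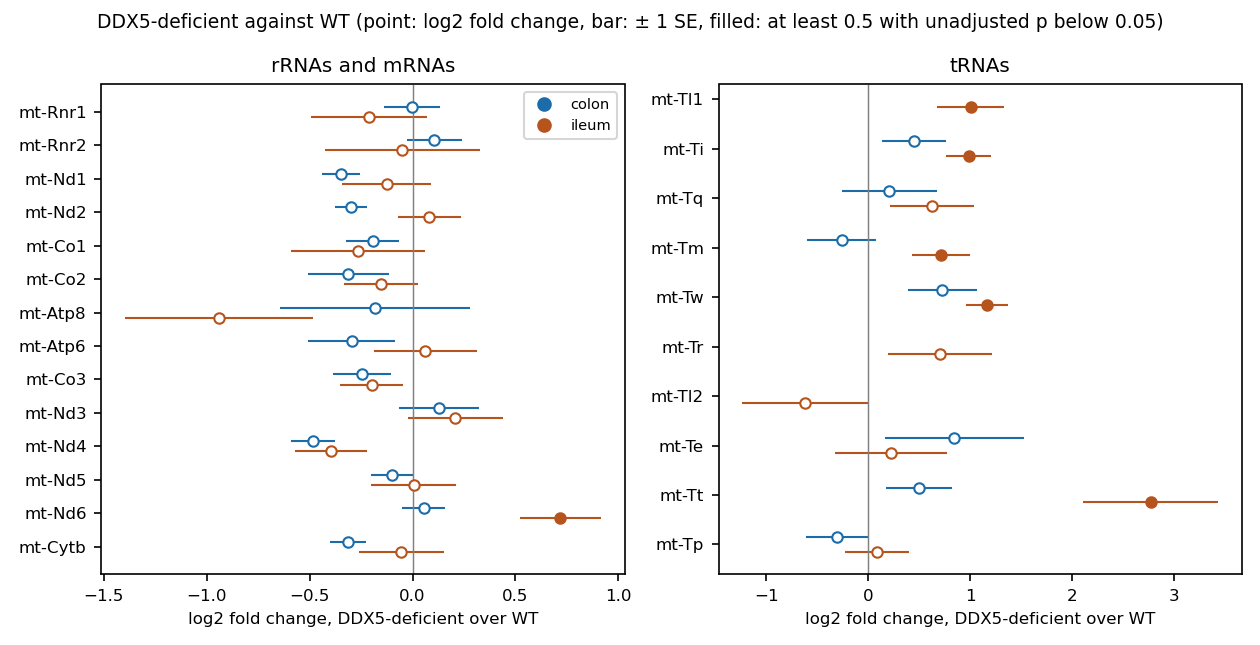
Log2 fold change of DDX5-deficient over WT (x axis) for mitochondrial rRNAs and mRNAs (left) and tRNAs (right) in colon (blue) and ileum (brown). Bars are 1 SE, derived from the F statistic of edgeR. Points are filled where the change is at least 0.5 in size with an unadjusted p below 0.05. No colon point is filled, and in the ileum mt-Nd6 and 5 tRNAs are filled to the right of 0.

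Transfer RNAs were a marginal part of these libraries. A mitochondrial tRNA gene spans 59 to 75 bases, less than one read of 100 bases. A read over it that aligned in full thus reached into its neighbours, and a count here need not come from mature tRNA. How a read reaching over neighbouring genes was assigned in the counting was not looked at. Of 21 tRNA genes listed, 7 passed the filter on low counts in the colon, 10 in the ileum and 10 over all 8 libraries. The other 11 had 0 to 13 counts in any library, where a count of 0 allows up to 3 counts. The tRNA for tryptophan, mt-Tw, was the most counted in each library, with 44 to 224 counts.

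The 5 tRNAs called higher in DDX5-deficient ileum are printed here to show how short each gene is against a read, with the anticodon in capitals (GENCODE M21 on mm10, 5′ to 3′, all on the plus strand). The anticodon was found as a triplet that pairs with a codon of the named amino acid in the vertebrate mitochondrial code, in a loop of 7 bases closed by at least 3 of 5 base pairs. mt-Tl1 (leucine, chrM:2676-2750) lies between mt-Rnr2 and mt-Nd1, mt-Ti (isoleucine, chrM:3706-3774) and mt-Tm (methionine, chrM:3845-3913) lie between mt-Nd1 and mt-Nd2, mt-Tw (tryptophan, chrM:4950-5016) follows mt-Nd2, and mt-Tt (threonine, chrM:15289-15355) follows mt-Cytb.
mt-Tl1: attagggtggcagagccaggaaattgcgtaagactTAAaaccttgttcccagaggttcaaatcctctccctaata
mt-Ti: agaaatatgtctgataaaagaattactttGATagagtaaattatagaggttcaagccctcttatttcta
mt-Tm: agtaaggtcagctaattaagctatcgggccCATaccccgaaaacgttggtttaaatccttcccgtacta
mt-Tw: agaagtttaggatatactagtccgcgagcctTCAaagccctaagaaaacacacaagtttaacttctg
mt-Tt: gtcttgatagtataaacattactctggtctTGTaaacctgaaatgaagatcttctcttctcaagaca
These 5 thus flank mRNAs that were themselves not called in this comparison.

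mt-Tw read 2.31 and 2.20 CPM in WT colon, 2.59 and 5.20 in DDX5-deficient colon, 6.18 and 8.46 in WT ileum, and 10.7 and 24.0 in DDX5-deficient ileum. mt-Ti read 1.05 and 2.02, 1.88 and 2.28, 4.20 and 5.76, and 7.03 and 13.3 CPM in these groups. For both, the DDX5-deficient ileum libraries lay above the WT ileum libraries, and the second one was farthest up. mt-Tm read 1.103 and 1.23, 0.828 and 1.14, 3.32 and 2.98, and 4.497 and 5.996 CPM, and mt-Tl1 read 0.158 and 0.308, 0.276 and 0.684, 1.89 and 2.01, and 3.19 and 4.82 CPM. mt-Tt read 0.630 and 1.58, 1.05 and 2.05, 0.0923 and 0.832, and 3.28 and 2.14 CPM, where the WT ileum values stand for 2 and 12 counts.

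In the ileum 5 tRNAs passed as higher in DDX5-deficient cells and 0 as lower, beside 3.87% and 3.48% of all genes. Of the 10 tested, mt-Tt, mt-Tr, mt-Tl2 and mt-Te did not have both WT libraries over the limit of the low-count filter. The call of mt-Tt is thus given as a description. Of the others, which were mt-Tl1, mt-Ti, mt-Tq, mt-Tm, mt-Tw and mt-Tp, 4 passed as higher. mt-Tw rose by 1.16 ± 0.207 on the log2 scale and was the only member with an adjusted p below 0.05 (0.0334 in edgeR). This adjusted p rests on the replicate block, and it was 0.560 without the block, 0.746 with crossed pairs, 0.811 in DESeq2 with the block and 0.366 with all 8 libraries in one fit, where the value was 1.25 (unadjusted p = 0.0153). mt-Tl1 rose by 1.00 ± 0.325 (adjusted p = 0.235), mt-Ti by 0.98 ± 0.221 (adjusted p = 0.0869) and mt-Tm by 0.71 ± 0.282 (adjusted p = 0.332), each by the criterion of the study. mt-Tt was at 2.77 ± 0.663 (adjusted p = 0.104). With a library left out of that fit, which has no block, only mt-Tt passed without the second DDX5-deficient ileum library, where mt-Tw was at 0.57 (unadjusted p = 0.175 in edgeR), and none passed without the first WT ileum library, where mt-Tw was at 1.02 ± 0.532 (unadjusted p = 0.0946 in edgeR). DESeq2 with the block called 3, without mt-Tl1 and mt-Tm. Summed over all tRNAs the count was 0.119% and 0.175% of the mRNA count in WT ileum, and 0.177% and 0.527% in DDX5-deficient ileum. Repeat-like genes were also highest in the second DDX5-deficient ileum library, at 19.5% of counts. In the first they took 0.226%, against 4.04% and 3.93% in WT ileum, and mt-Tw and mt-Ti lay above WT there too. Of 7 tested markers of other cells 1 was called higher. The 14 markers summed to 61.3 and 75.9 CPM in WT and 59.4 and 55.4 CPM in DDX5-deficient ileum, most of each sum being Ptprc. The part of either was not tested. In the colon 0 of 7 tRNAs passed in either direction, with an unadjusted p below 0.05 for none, and mt-Tw was at 0.73 ± 0.335 (adjusted p = 0.470 in edgeR).

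Between the tissues, 7 of the 10 tRNAs tested also passed the filter on the colon libraries alone. Of these 7, 3 were higher in ileum and 0 lower in WT cells, and 4 were higher and 0 lower in DDX5-deficient cells, at an adjusted p below 0.05, beside 17.4% higher and 16.8% lower of all genes in WT and 18% and 17.3% in DDX5-deficient cells. mt-Tw rose by 1.69 ± 0.448 in WT and 2.13 ± 0.426 in DDX5-deficient cells, mt-Ti by 1.66 ± 0.402 and 2.27 ± 0.391, and mt-Tm by 1.43 ± 0.285 and 2.39 ± 0.295. The call of mt-Tm held in both genotypes with each library left out, and in WT that of mt-Tw was lost without either colon library or the second ileum library and that of mt-Ti without the first colon or the second ileum library. The remaining 3 tRNAs passed the filter only through the ileum libraries, where they are high, and are described by their counts. mt-Tl1 had 3, 7, 5 and 15 counts in the colon libraries and 41, 29, 34 and 45 in the ileum libraries. mt-Tr (arginine) had 4, 5, 4 and 6 in colon and 15, 9, 9 and 13 in ileum. mt-Tl2, for the other group of leucine codons, had 2, 1, 2 and 0 in colon and 17, 14, 2 and 10 in ileum. mt-Tq (glutamine, light strand) was called in DDX5-deficient cells at 1.49 ± 0.453, a call lost without the first colon or the second ileum library, and was at 1.095 ± 0.453 in WT (adjusted p = 0.0976). Of the other light-strand tRNAs, mt-Tp (proline) was at 0.81 ± 0.486 and 1.22 ± 0.519 and mt-Te (glutamate) at 0.65 ± 0.876 and 0.32 ± 0.883, neither of them called. mt-Tt was at -1.45 ± 0.826 in WT and 0.80 ± 0.662 in DDX5-deficient cells. With the mouse as a block mt-Tq was also called in WT (adjusted p = 0.0351).

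**Figure D5:**
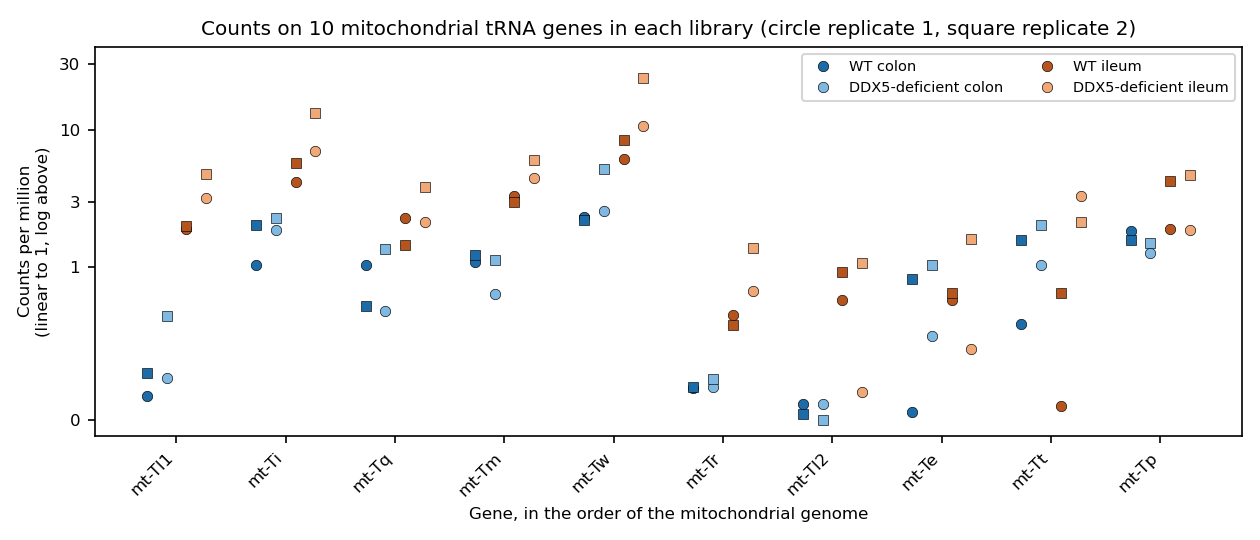
CPM (axis linear from 0 to 1 and logarithmic above) on the 10 mitochondrial tRNA genes tested over all libraries, in genome order, with colours and symbols for groups and replicates. The second DDX5-deficient ileum library (light brown square) is the highest for mt-Tw at 24.0 and for mt-Ti at 13.3 CPM.

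Whether the effect of DDX5 loss differed between the tissues was tested as the interaction of tissue and genotype. No mitochondrial RNA passed at an adjusted p below 0.05 in edgeR or DESeq2, against 2 of 16178 genes (0.0124%) in edgeR. Of the 14 mRNAs and rRNAs and 10 tRNAs tested, 1 had an unadjusted p below 0.05 in edgeR, beside 755 of all 16178 genes. It was mt-Tm at 0.96 ± 0.413 (adjusted p = 1.00 in edgeR, DDX5-deficient minus WT in ileum less the same in colon). mt-Nd6 was at 0.77 ± 0.505 and mt-Tt at 2.24 ± 1.06. The calls of mt-Nd6 and of 5 tRNAs in ileum are thus not shown to differ between the tissues. In the colon comparison of genotypes mt-Tl1 failed the filter on low counts and was not tested, and the others were tested and not called.

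Few nuclear genes that serve mitochondrial RNA were called with genotype. The share of all genes called was 3.67% lower and 3.04% higher in colon, and 3.48% and 3.87% in ileum. Of 25 genes for mitochondrial transcription and DNA replication, 0 were called in colon and 1 lower in ileum, Rnaseh1 (-0.61 ± 0.220), which removes RNA primers from DNA. Tfam, the factor that packs mitochondrial DNA and starts its transcription, read 37.4 to 43.1 CPM in all 8 libraries and was at 0.05 ± 0.114 in colon and -0.01 ± 0.136 in ileum. Polrmt, the mitochondrial RNA polymerase, read 21.3 to 27.3 CPM and was at 0.23 ± 0.105 and 0.13 ± 0.150. None of the 35 tested genes for processing, modification and decay of mitochondrial RNA was called in either tissue. Of 16 regulators of mitochondrial biogenesis, Myc was lower in colon (-0.74 ± 0.150) and Esrrg, an orphan nuclear receptor, in ileum (-0.86 ± 0.253), both by the criterion of the study.

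Over the nuclear subunits of complexes I to V, of which 36, 4, 9, 13 and 18 genes were tested, 0 passed in colon and 0 in ileum in edgeR, against the same shares of all genes. Their median log2 fold changes in colon were 0.09, 0.09, 0.07, 0.12 and 0.05, beside -0.27 for the 12 tested mitochondrial mRNAs. In ileum the medians were 0.01, 0.13, 0.07, 0.07 and 0.06, beside -0.09. The nuclear copies had medians of -0.32 in colon and -0.20 in ileum over the 9 of 10 that were tested, with none called.

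Between ileum and colon the same lists are read against 16.8% of all genes lower and 17.4% higher in WT, and 17.3% and 18% in DDX5-deficient cells. Of the 25 transcription and replication genes 7 were lower in ileum and 0 higher in each genotype, at an adjusted p below 0.05. In WT the largest changes were those of Tk2 (-1.71 ± 0.180), which makes nucleotide precursors, Slc25a33 (-1.21 ± 0.198), a pyrimidine nucleotide carrier, and Top1mt (-0.92 ± 0.220), a topoisomerase, and in DDX5-deficient cells those of Tk2 (-1.64 ± 0.193), Slc25a36 (-1.16 ± 0.165), another such carrier, and Rnaseh1 (-0.99 ± 0.163). Of 35 processing and decay genes 6 were lower and 1 higher in WT, and 5 lower and 1 higher in DDX5-deficient cells. The higher one was Lrpprc, which binds and stabilises mitochondrial mRNAs (0.72 ± 0.122 in WT and 0.64 ± 0.122 in DDX5-deficient cells). The lower ones included Ptcd2 (-0.62 ± 0.134 and -0.56 ± 0.135), whose product acts on mt-Cytb RNA, and Fastkd1 (-0.60 ± 0.111 and -0.52 ± 0.111). Tfam (0.13 ± 0.108 and 0.06 ± 0.109) and Polrmt (0.09 ± 0.114 and -0.02 ± 0.115) were not called. Among the biogenesis regulators 4 were lower and 3 higher in WT, and 4 lower and 2 higher in DDX5-deficient cells, with Pparg lowest in ileum (-2.81 ± 0.164 and -2.57 ± 0.169).

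Of 36 nuclear complex I genes 2 were lower and 0 higher in WT ileum, Ndufa7 (-0.64 ± 0.175) and Ndufa1 (-0.56 ± 0.156), and 5 were lower and 0 higher in DDX5-deficient ileum. The medians of this list were -0.02 and 0.00, beside 0.46 and 0.72 for the 12 mitochondrial mRNAs. In complex III, 1 gene was lower, Uqcr10 (-0.45 ± 0.120 in WT), and 3 were higher, Uqcrc1 (0.39 ± 0.127), Uqcrq (0.35 ± 0.113) and Cyc1 (0.30 ± 0.101), and these 4 genes were also called, in the same directions, in DDX5-deficient cells. In complex IV 1 was lower, Ndufa4 (-0.51 ± 0.109), and 1 higher, Cox7a1 (0.89 ± 0.245), in WT, and only Ndufa4 was called in DDX5-deficient cells (-0.44 ± 0.111). The epithelial markers, of which 3 of 7 were higher in ileum in each genotype, summed to 15002 and 14358 CPM in WT ileum against 10714 and 10453 in WT colon, and their part in the mitochondrial differences was not tested.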

How the data were processed

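RNAseq of IECs was analysed in 8 libraries. Groups were taken from the sample labels. The authors aligned 100-base paired-end reads to mm10 with STAR 2.6.1a and deposited, for each tissue, raw counts from featureCounts over uniquely mapped reads in exons of GENCODE M19. The strand setting of the counting is not given in the sources used here, so reads of overlapping genes on opposite strands may not be separated. The tables also hold the authors' normalized signal (counts divided by size factors of DESeq2 1.18.1) and the authors' own comparison (log2 fold change, its error, a test score and p-values), which were not used. A gene listed in 1 table was set to 0 counts in the other.

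Counts were filtered with filterByExpr (minimum count 10), scaled with TMM and tested with the quasi-likelihood test of edgeR 4.0.16 in R 4.3.3, with Benjamini-Hochberg adjustment over all genes. This test reports no SE. Each SE was derived as the size of the log2 fold change divided by the square root of the F statistic. It can be erratic at low counts, as for mt-Tl2 in the interaction, where it was 13.8. Genotypes were compared within each tissue with the replicate number as a block, in place of the harvest covariate that the authors fitted and that is not given per mouse in the sources used here. Tissues and the interaction were tested over all 8 libraries without a block. DESeq2 1.42.0, other scalings, filters and blocks, and each library left out were the alternatives. Same-numbered colon and ileum libraries of a genotype come from the same mouse, by mouse numbers that the authors give, and deviated together (correlation over 16178 genes 0.181 in WT and 0.210 in DDX5-deficient cells). Between genotypes the correlation was 0.0253 in colon and 0.241 in ileum. The libraries of a group come from 2 mice. The p-values between genotypes measure the spread that is left after the replicate block. Those between tissues and of the interaction pool the spread within all groups, and they treat the colon and ileum libraries of the same mouse as independent.

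The members and gene lists were chosen with earlier results of these data known. All mRNAs and rRNAs, tRNAs that passed the filter, Ddx5, Tfam and Polrmt, and at most 3 called genes in each direction of a nuclear list were named. Nuclear copies and the repeat-like genes were named after their values were seen. Sequences come from GENCODE M21 transcripts on the same build. Python 3.11.15 was used for shares, ratios and sequences.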

Additional observations from a re-analysis of the deposited data

How the results depend on the processing

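The 11 tRNAs that failed the filter and mt-Nd4l could not be tested at their counts. Over all alternatives, 1164 values of single members stayed on their side of the threshold, 55 no longer passed and 20 newly passed. Of the 1164, 96 changed sign, all of them called in neither fit and 87 of them with a library left out, such as mt-Co3 in colon (-0.61 to 0.12) and mt-Atp6 in ileum (-0.34 to 0.54). No called value reversed. The cause was not tested. Between genotypes, the fits that leave out a library have no replicate block and pool the spread of all remaining libraries, a lone library being assumed to vary like the others, so their base is the fit of all 8 libraries.

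In the colon genotype comparison, leaving out a library gave 0 to 2 mRNAs and rRNAs called lower, 0 to 2 tRNAs called higher and 0 to 1 called lower. In the ileum it gave 0 to 2 mRNAs and rRNAs called lower, 0 to 1 called higher and 0 to 5 tRNAs called higher. There mt-Nd6 fell out, leaving 0 mRNAs or rRNAs called higher, without the replicate block, with crossed pairs and with all 8 libraries in one fit, while the pairing changed no tRNA count (5 in each). With no filter on low counts 1 mRNA, mt-Atp8, was called lower, and DESeq2 with the block called 3 tRNAs higher. Between genotypes in ileum, genes called at an adjusted p below 0.05 numbered 98 with the block and 1 without it, and genes called by the criterion of the study 1034, against 675 with crossed pairs and 353 in DESeq2. In colon these were 1031, against 530 in DESeq2, and 1045 with all 8 libraries in one fit. From that fit, leaving out the first WT colon library gave 648 and the second DDX5-deficient colon library 1794. In ileum it gave 978, and 1642 without the second DDX5-deficient ileum library. The interaction passed for 2 genes, against 15 in DESeq2 and 210 with no filter on low counts.

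Between tissues, leaving out a library gave 3 to 4 mRNAs and rRNAs and 2 to 4 tRNAs called higher in WT, and 4 to 6 mRNAs and rRNAs and 4 to 8 tRNAs in DDX5-deficient cells. The tRNA counts here include mt-Tl1, mt-Tr and mt-Tl2, which passed the filter only through the ileum libraries, unlike the counts given with the tRNA results. DESeq2 called 4 tRNAs higher in DDX5-deficient cells, where the calls of mt-Tq, mt-Tr and mt-Tl2 were lost. With no filter on low counts 1 tRNA, mt-Tt, was called lower in WT. With the mouse as a block 6 mRNAs and rRNAs were called higher in WT and 5 in DDX5-deficient cells, with 6 tRNAs in each. Among the tRNAs this block gained mt-Tq and lost mt-Tr in WT, and it lost mt-Tl2 in DDX5-deficient cells.

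Over all genes, 5528 were called between the WT tissues, against 3153 to 3631 with a library left out. The median log2 fold change over all genes was 0.24 in WT and 0.15 in DDX5-deficient cells in DESeq2, which tested 40178 genes, while RLE scaling moved it by less than 0.05.

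The mean share of mitochondrial counts became 8.76% in WT colon, 8.89% in DDX5-deficient colon, 8.74% in WT ileum and 8.00% in DDX5-deficient ileum per count on nuclear protein-coding genes. With the rRNAs left out it was 2.38%, 2.06%, 1.88% and 1.499%, and without the repeat-like genes 7.59% in WT ileum.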
